A study of Mus musculus with 2031 samples.

Results

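Mural cells are the pericytes and smooth muscle cells that wrap the outside of the endothelial tube of brain vessels. Here they are the cells that the study's own list of cell types names Mural. That list holds 135 such cells, and all but 1 of them, with a file of counts each, were used here, out of 2030 cells in all. They came from 4 cell suspensions: 27 and 12 from the cortical suspensions 1C and 2C, and 48 and 47 from the hippocampal suspensions 1H and 2H, named below cortex 1, cortex 2, hippocampus 1 and hippocampus 2. All cells were taken from adult C57BL/6J mice at postnatal day 56 and sorted as single living cells that bound an antibody to Atp1b2 (ACSA-2) and no antibody to the oligodendrocyte lipid O1. Each cortical suspension was prepared from 1 of 2 littermates, and each hippocampal suspension from 4 pooled littermates, so brain area, litter and the pooling of animals cannot be told apart. The gate was meant for astrocytes, so the mural cells described here are those that carry this surface protein and survive dissociation. The mural cells were set against 1781 astrocytes (461, 499, 393 and 428 per suspension), typed AST1 to AST5 in the copy of the study's list used here. They were also set against 30 endothelial cells (9, 3, 6 and 12). That copy lacked some of the study's cells, so 1781 is fewer than the astrocytes the paper divides. In cortex 1, 502 of 541 cells had a type in that copy. In cortex 2 these were 517 of 521, in hippocampus 1 461 of 464 and in hippocampus 2 502 of 504.

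Pericytes sit within the basement membrane of capillaries, and smooth muscle cells ring arterioles and venules. Endothelial cells recruit both by secreting platelet-derived growth factor B, which binds the receptor Pdgfrb on the mural cell, and Notch ligands on the endothelium act on Notch3 in the mural cell. Both cell types can change the width of the vessel, through calcium entry, myosin phosphorylation and potassium channels that close or open with the state of the cell.

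Counts are reads per gene from Smart-seq2, which amplifies full-length cDNA in a well for each cell and adds no molecular tags. The counts of a type were added up within each suspension, giving sums of 14794597 to 65239359 gene counts for mural cells, 612167039 to 775302561 for astrocytes and 5287462 to 15636984 for endothelial cells. The smallest sums are therefore the least precise. Levels are given as CPM, the share of a gene in all gene counts scaled to parts in 1e6, with the library total adjusted by TMM, and as mean ± SD over the 4 suspensions. A floor of 3 counts in a sum corresponds to 0.0447 to 0.165 CPM in the mural sums and to 0.00571 to 0.00724 CPM in the astrocyte sums. The sums were tested by the quasi-likelihood method of edgeR with a term for brain area, Benjamini-Hochberg adjusted over all genes tested, with a gene called at an adjusted p under 0.05. Mural cells and astrocytes of a suspension came from the same animals, so a value with the suspension as a block is added where it changes a call. The study typed the cells by clustering these same counts, so the calls give the size of differences and how they repeat over suspensions, and are no independent evidence that the types differ.

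Levels of 4 markers of mural cells were read in the cells with this label. The study assigned types from marker genes in these same counts, so the levels are no independent check of the label. Pdgfrb, the PDGF receptor of mural cells, was at 3915, 2705, 3919 and 4061 CPM in the mural sums of cortex 1, cortex 2, hippocampus 1 and hippocampus 2, against 126.6 to 165 CPM in astrocytes. All 4 mural values lay above every astrocyte value, with cortex 2 the lowest, and the difference on the log2 scale was 4.67 ± 0.18 (SE, adjusted p = 0.000111). Cspg4, the proteoglycan NG2 (chromosome 9, 56865033 to 56899870, GRCm38), stood at 861 ± 115 CPM (n = 4) against 1.52 to 6.27 CPM (log2 difference 8.37 ± 0.59, adjusted p = 0.000389). Des, the intermediate filament desmin (chromosome 1, 75360329 to 75368579), stood at 227.8 ± 103.7 CPM against at most 2.29 CPM (adjusted p = 0.0311, and 0.153 with the suspension as a block). Col1a2, a chain of type I collagen (chromosome 6, 4504814 to 4541544), was at 242.6, 125.8, 365.6 and 350 CPM against 0 to 33.4 CPM and was not called (adjusted p = 0.205). So 3 of the 4 markers were called higher (2 with the block, 2 to 3 with a suspension left out and 1 with as many astrocytes as mural cells), where 4.92% of the 15887 genes tested were called higher in mural cells and 22.5% lower.

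In single cells the same markers were uneven. Pdgfrb had a count in 98.5% of the mural cells, Cspg4 in 75.4%, Col1a2 in 44.03% and Des in 35.1%; the shares in astrocytes were 26.9%, 0.842%, 4.10% and 0.225%. All 4 markers were found together in 16 mural cells, 3 in 54, 2 in 49 and 1 in 15, and each mural cell had at least 1. Of the 1781 astrocytes 35 had 2 markers, and 0 had 3 or 4. Of the 30 endothelial cells 8 had 2 markers, 3 had 3 and 1 had all 4, and 0 of the 4 markers were called between mural and endothelial sums by edgeR (lowest adjusted p = 0.0939, for Pdgfrb), a comparison in which 0.366% of 8478 genes were called higher and 0.377% lower. The median depth was 1217000 gene counts in mural cells and 1469300 in astrocytes.

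**Figure D1:**
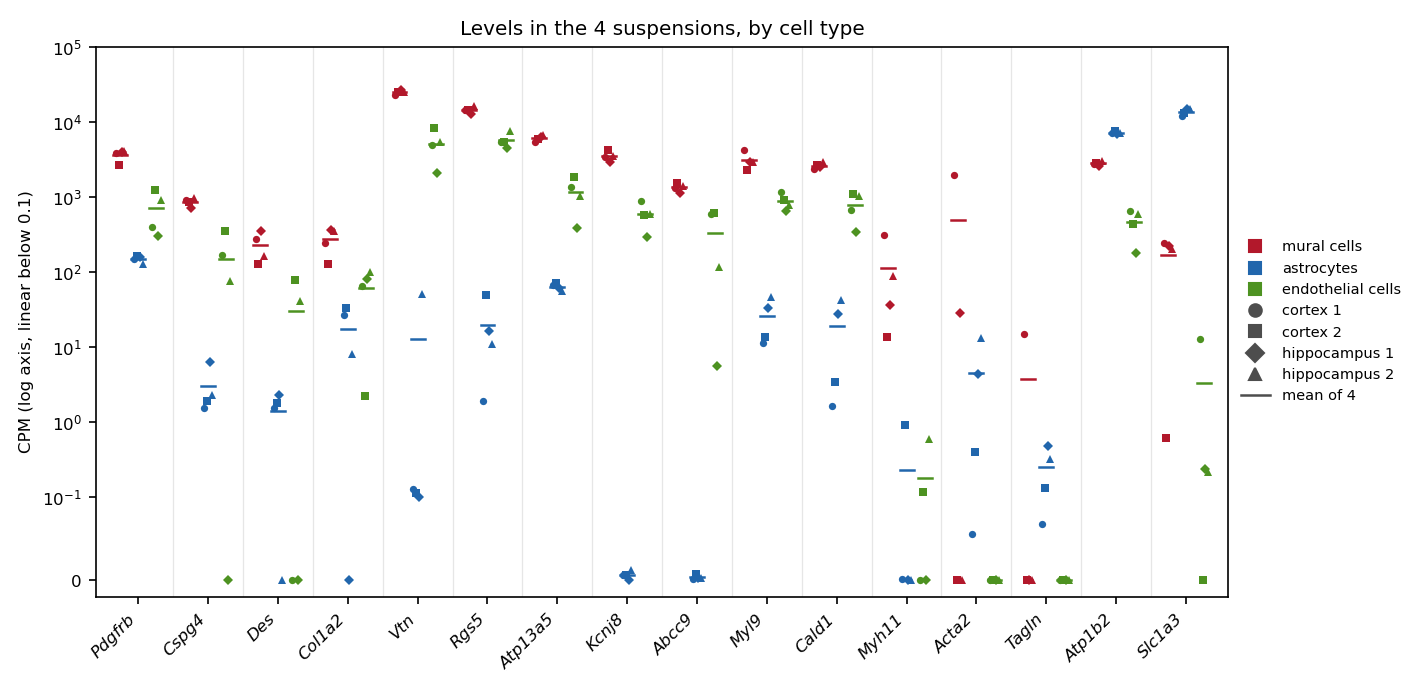
Levels of 16 genes in CPM (log axis, linear below 0.1) in the sums of mural cells, astrocytes and endothelial cells; each symbol is 1 suspension and each bar the mean of 4. Kcnj8 and Abcc9 lay between 1146 and 4204 CPM in mural cells and under 0.02 CPM in astrocytes, while Acta2 and Tagln were highest in the mural sum of cortex 1.

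All 14 genes of the pericyte list were tested and 14 were called higher in mural cells, where 4.92% of all genes tested were. Of the 14 genes 9 were also called with the suspension as a block, and 6 to 12 when a suspension was left out. Their summed level was 56575, 60054, 58928 and 62674 CPM in the mural sums, 96.7 to 170.7 CPM in astrocytes and 7980 to 18738 CPM in endothelial cells. The median log2 difference over the list was 12.27, against −1.28 over all genes tested; with genes at 0 counts set to their bound, these were 10.75 and −0.795.

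Vtn encodes vitronectin, an adhesive glycoprotein of the matrix. It was at 22590, 25004, 26825 and 24979 CPM in mural cells. Astrocytes had 0.0994 to 0.129 CPM in 3 suspensions and 51.1 CPM in hippocampus 2 (adjusted p = 0.0232). Rgs5, a regulator that shortens G protein signals and a common pericyte marker, was at 14593, 14558, 12755 and 16576 CPM against 1.92 to 49.9 CPM (log2 difference 9.68 ± 1.19, adjusted p = 0.00372). Per kilobase of exon, Vtn stood at 12241 and Rgs5 at 3216 CPM in mural cells. Atp13a5, a P5-type ATPase, reached 5325 to 6781 CPM against 55.4 to 70.5 CPM, and the 2 ranges were narrow (log2 difference 6.63 ± 0.16, adjusted p = 1.99e-05). The peptidase Enpep, which cleaves angiotensin II, stood at 1735 ± 103.99 CPM (n = 4) against 0.00397 to 1.94 CPM in astrocytes (adjusted p = 0.015). Art3, an ADP-ribosyltransferase family member, was at 2184, 1650, 1506 and 1226 CPM against 11.8 ± 1.36 CPM (log2 difference 7.16 ± 0.26, adjusted p = 9.67e-05). Cd248, the sialomucin endosialin, was at 1117, 560, 1228 and 996 CPM, lowest in cortex 2, against at most 1.50 CPM (adjusted p = 0.0155). The 5 members called only without the block were Higd1b (adjusted p = 0.0103, and 0.0604 with the block), Ndufa4l2 (0.00817 and 0.0582), Anpep (0.037 and 0.0852), Mcam (0.0234 and 0.103) and Slc6a20a (0.0201 and 0.107); astrocytes had 0 to 21.1 CPM of these and mural cells 108.2 to 2572 CPM.

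The ATP-sensitive potassium channel of mural cells, which opens when ATP falls, is built from the pore subunit Kir6.1 (Kcnj8) and the sulfonylurea receptor SUR2 (Abcc9). Both genes lie on the minus strand of chromosome 6, Kcnj8 at 142564837 to 142571614 and Abcc9 at 142587862 to 142702315, with 16247 bases between them. Kcnj8 was at 3445, 4204, 2928 and 3501 CPM in mural cells and at 0 to 0.0121 CPM in astrocytes (adjusted p = 0.00025). Abcc9 was at 1306, 1555, 1146 and 1403 CPM and at most 0.00761 CPM in astrocytes (adjusted p = 8.37e-05). Neither gene's mural and astrocyte values came near each other in any suspension. Of the mural cells 92.5% had a count of Kcnj8, 89.6% had one of Abcc9, and 87.3% had both; the Spearman correlation of their levels over these cells was 0.286, ranging from 0.012 in hippocampus 2 to 0.724 in cortex 1, and cells of a suspension share its preparation.

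Over the list of ion channels and calcium handling, 11 of 21 genes tested were higher in mural cells and 4 lower (6 and 2 with the suspension as a block, 6 to 9 and 2 to 4 with a suspension left out). Of all genes tested 4.92% were higher and 22.5% lower, so the lower share of this list was not above the background. The chloride channel Ano1, which depolarizes the cell when calcium rises, was at 1460, 1678, 1028 and 862 CPM against 0.00198 to 2.95 CPM in astrocytes (adjusted p = 0.0118, and 0.109 with the block). Kcne4, an accessory subunit of voltage-gated potassium channels, was at 383 to 504 CPM against at most 0.0019 CPM (adjusted p = 0.000178). Trpc4, a receptor-operated cation channel, was at 145.6 ± 77.3 CPM, from 59.5 in cortex 1 to 225.5 in hippocampus 1, with 0 counts in astrocytes (adjusted p = 0.0019, and 0.0778 with the block), and Itpr1, the inositol trisphosphate receptor, was at 302.6 ± 118 CPM against 6.49 to 17.1 CPM (adjusted p = 0.0016). Cacna1c, the pore of the voltage-gated L-type calcium channel, was at 115, 13.6, 37.3 and 31.4 CPM against 0.42 to 2.24 CPM, highest in cortex 1 (adjusted p = 0.0128, and 0.135 with the block). Kcnmb1, the accessory subunit of the large-conductance calcium-activated potassium channel, was at 190 ± 68.3 CPM against at most 0.118 CPM (adjusted p = 0.00931), while its pore gene Kcnma1 had 0 counts in all 4 mural sums and 17.5 to 41.7 CPM in astrocytes (adjusted p = 0.00929, and 0.157 with the block). The gap junction gene Gja4 (connexin 37) was at 823, 1082, 892 and 899 CPM against at most 0.00237 CPM (adjusted p = 0.000111). The potassium channels of astrocytes were nearly without counts in mural cells: Kcnj10 (Kir4.1) at most 0.026 CPM against 170 to 258.4, and Kcnj16 at most 0.0149 CPM against 372.4 to 493 CPM.

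The contractile list gave a split. Of 15 genes tested 8 were higher in mural cells and 0 lower (6 with the suspension as a block, 6 to 9 with a suspension left out). Without 6 mural cells that stood apart, described after the promoters below, 7 were higher and 2 lower. Of all genes tested 4.92% were higher and 22.5% lower. The median log2 difference over the list was 5.92, against −1.28 over all genes. The summed level was 11203, 6207, 7022 and 7375 CPM against 116.99 to 229.3 CPM in astrocytes. Myl9, the regulatory light chain of smooth muscle and nonmuscle myosin, was at 4238, 2300, 2884 and 2964 CPM against 11.2 to 46.4 CPM (log2 difference 7.17 ± 0.56, adjusted p = 0.000565). The kinase that phosphorylates it, Mylk, was at 551, 489, 483 and 578 CPM against 1.81 to 4.17 CPM (adjusted p = 0.000234), and Cald1, the actin-binding caldesmon, at 2394, 2698, 2486 and 2882 CPM against 1.65 to 42.4 CPM (adjusted p = 0.00509). Cald1 had a count in every mural cell. Smtn, Flna and Tpm1 were also called, at 158 ± 43, 350.7 ± 141.7 and 331.3 ± 175 CPM (n = 4).

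The markers that define arteriolar smooth muscle were at or near 0 in most mural cells. Acta2, smooth muscle alpha-actin, was at 1944 CPM in cortex 1, 28.3 CPM in hippocampus 1 and 0 in the other 2 sums, and was not called (adjusted p = 0.59). Its counts came from 4 cells, and 76.9% of them from 1 cell. Tagln, transgelin, was at 14.7 CPM in cortex 1 and at 0 in the other 3 sums. Cnn1 and Pln, calponin and phospholamban, had counts in 1 cell each. Myh11, the smooth muscle myosin heavy chain, was found in 16 cells, with 42.8% of its counts in 1 cell. It was at 313.9, 13.7, 35.7 and 87.4 CPM, highest in cortex 1 (adjusted p = 0.0471, and 0.145 with the suspension as a block). In all, 5 mural cells had a count of any of Acta2, Tagln, Cnn1 and Pln, whereas all but 3 had Rgs5 and all but 1 had Vtn.

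A search of the 250 bases before each gene's RefSeq start (GRCm38.p6, both strands) puts sequence beside these levels. The CArG box, which binds serum response factor, is read as CC, then 6 bases that are A or T, then GG. It was found in 482 of 32851 promoters (1.47%), in 1 of 16 promoters of the contractile list and in 0 of 16 of the pericyte list. These promoters cover 15 of the 18 contractile and 11 of the 14 pericyte genes, and the other genes were not searched. Myl9 held the match of the contractile list. In the immediate early list, described below, 1 of 17 promoters, from 17 of its 19 genes, held one, that of Zfp36, 58 bases before the start. Both are shown 5′ to 3′ on the gene's strand with the match in capitals, at chr2:156775214-156775463 (plus strand) and chr7:28379229-28379478 (minus strand); a match describes these letters only.
Myl9: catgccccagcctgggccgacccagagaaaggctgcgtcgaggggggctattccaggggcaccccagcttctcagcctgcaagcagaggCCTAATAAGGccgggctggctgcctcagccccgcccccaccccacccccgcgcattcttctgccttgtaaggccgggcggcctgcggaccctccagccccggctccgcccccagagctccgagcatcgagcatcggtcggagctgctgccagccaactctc
Zfp36: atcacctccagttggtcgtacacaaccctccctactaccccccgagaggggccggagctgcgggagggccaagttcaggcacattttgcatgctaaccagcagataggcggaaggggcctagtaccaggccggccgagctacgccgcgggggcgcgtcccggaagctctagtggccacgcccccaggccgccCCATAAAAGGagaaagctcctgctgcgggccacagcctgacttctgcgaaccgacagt

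Among the mural cells 6 stood apart, having a count of Acta2 or none of Rgs5. They were picked after the values were seen and carry no test. The first, from cortex 1, held 36808 CPM of Acta2, 14786 of Myl9, 5201 of Myh11, 1465 of Pln and 473 of Cnn1, and no counts of Kcnj8, Abcc9, Vtn, Rgs5 or Atp13a5. The second, also from cortex 1, had 10552 CPM of Acta2 beside 35041 of Rgs5 and 16987 of Vtn, again without Kcnj8, Abcc9 or Atp13a5. The third (cortex 1) and the fourth (hippocampus 1) had 2273 and 1168 CPM of Acta2 with 18811 and 49734 CPM of Rgs5. The other two, from hippocampus 2 and hippocampus 1, had no Rgs5, Kcnj8, Abcc9 or Myl9, and held Dcn (decorin) at 5358 and 3473 CPM, Col1a1 at 3520 and 934 CPM and Lum (lumican) at 2283 and 1015 CPM, genes known from fibroblasts. In these 2 cells Vtn was at 3659 and 15237 CPM. Of 6 pericyte genes followed in each cell (Vtn, Rgs5, Atp13a5, Kcnj8, Abcc9 and Higd1b), 84.3% of the cells had all 6, 14 cells had 5, 3 had 4, 1 had 3 and 3 had 1. Casq2, a calcium store protein that is on no list and was named after its values were seen, was found in 64 cells. Without the 6 cells, 772 genes were called higher and 3752 lower.

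**Figure D2:**
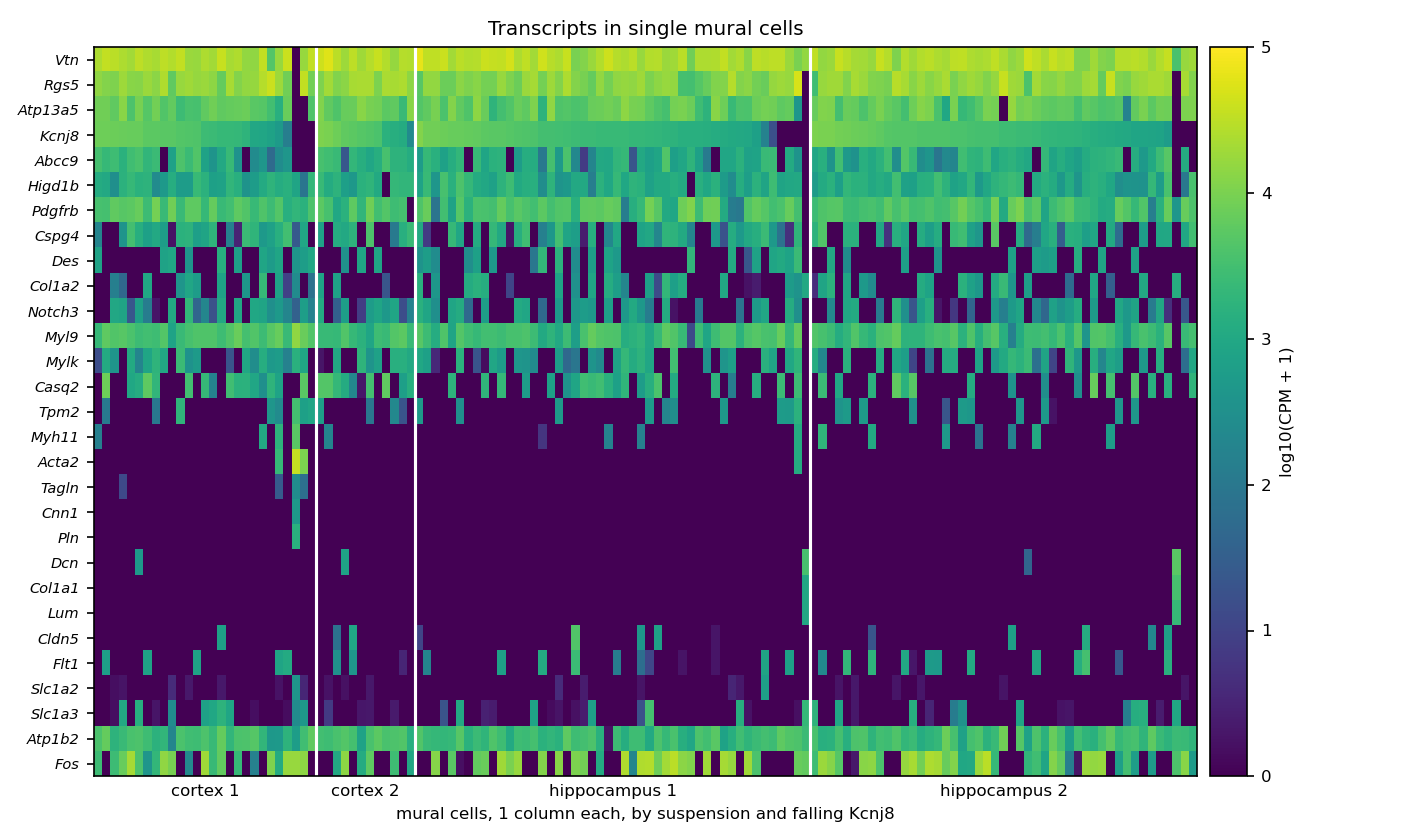
Levels of 29 genes, as log10(CPM + 1), in the mural cells, 1 column each, ordered by suspension and then by falling Kcnj8. Vtn, Rgs5, Pdgfrb and Myl9 fill almost every column, Acta2 has a count in 4 cells, and Dcn, Col1a1 and Lum are found together in 2.

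Across all genes, 781 were called higher in mural cells than in astrocytes and 3579 lower. These were 4.92% and 22.5% of the genes tested. With the suspension as a block 1.83% were higher and 2.37% lower, and without cortex 1 these were 1.73% and 2.63%. Of the lower genes 2355 had 0 counts in every mural sum, and 2088 had a mean astrocyte level under 10 CPM, so much of that count lies with genes of low level in the deeper astrocyte sums; 726 of them had at least 100 CPM in astrocytes. With genes kept only where over 25% of the cells of a type had a count, 793 were higher and 729 lower, 25.2% and 23.1% of the 3150 genes left, so the background share of higher genes moves from 4.92% with this filter. Of the higher genes 567 had a mean mural level of at least 100 CPM and 30.99% had a count in a majority of mural cells. Among the 10 largest differences of well-covered higher genes were those of Kcnj8, Gja4, Abcc9, Mgp, Slc16a12, Ggt5, Tbx3, Ebf1 and Enpep. Ggt5, which converts leukotriene C4, was at 1075, 545, 797 and 874 CPM against at most 0.00793 CPM in astrocytes (adjusted p = 0.000389). Mgp, the matrix Gla protein that restrains calcification of vessels, was at 669 ± 171.7 CPM against at most 0.00397 CPM (adjusted p = 0.00027). The corresponding lower genes were Gabrb1, AW047730, Igsf11, Timp4, Lfng, Ncam1, Itih3, Bcan, Dclk1 and Aldh1l1. Gabrb1, a GABA-A receptor subunit, had 0 counts in all mural sums and 765 to 893 CPM in astrocytes. Against a floor of 3 counts over the 4 mural sums together this is 49630-fold. Reads carry no molecular tags, so that figure covers counting error only and is no lower limit on the difference in RNA. Bcan, the proteoglycan brevican, was at 4358 to 5304 CPM in astrocytes and at most 0.052 CPM in mural cells.

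**Figure D3:**
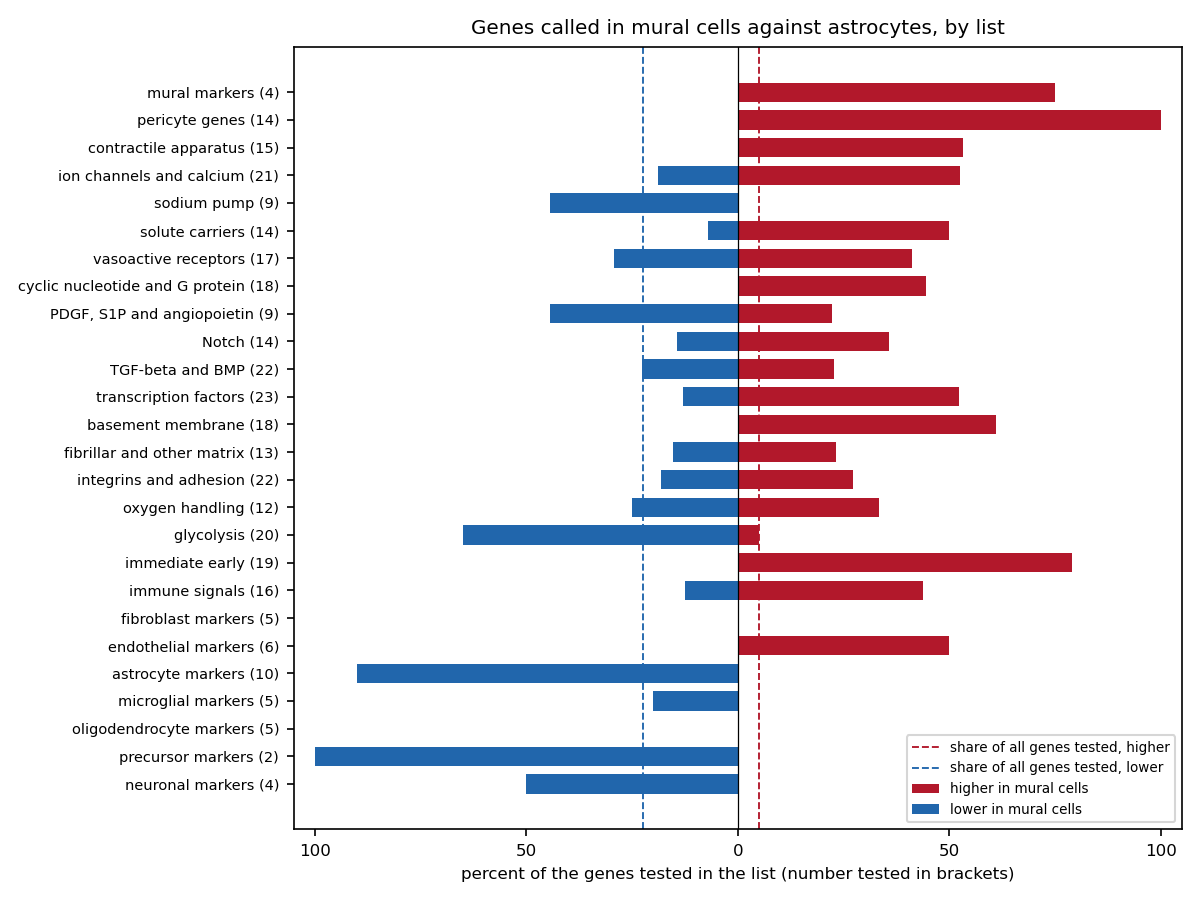
Percent of the genes tested in each of 26 lists that were called higher (right) or lower (left) in mural cells than in astrocytes, with the number tested in brackets; dashed lines give the share of all genes tested, 4.92% higher and 22.5% lower. Pericyte genes (14 of 14) and immediate early genes (15 of 19) reach farthest to the right, and astrocyte markers (9 of 10) and glycolysis (13 of 20) far to the left.

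The transcript of the sorted protein was found in both types, whose cells had all passed a gate on that protein. Atp1b2, the beta subunit of the sodium pump to which the sorting antibody binds, was at 2730, 2840, 2600 and 3035 CPM in mural cells and 6833 to 7519 CPM in astrocytes (log2 difference −1.30 ± 0.09, adjusted p = 0.000333), and had a count in 99.3% of mural cells. The median log2 difference over all genes tested was −1.28. Endothelial cells, which passed the same gate, had 180.9 to 653 CPM of Atp1b2 (adjusted p = 0.033 against mural cells, and 0.0516 with the block), with a count in 60% of them. The part of the sort in these levels was not tested. Fxyd1, phospholemman, a regulator of the pump, was at 18.5 ± 5.91 CPM against 158 to 230 CPM (adjusted p = 0.00261). Of the 9 genes of the sodium pump list 4 were lower and 0 higher than in astrocytes (2 lower with the block, 2 to 3 with a suspension left out). Of all genes tested 22.5% were lower and 4.92% higher, and 2.37% were lower with the block. The median log2 difference was −1.58 over the list, against −1.28 over all genes tested. The list summed to 6262 to 7142 CPM in mural cells, 12404 to 13515 CPM in astrocytes and 963 to 1568 CPM in endothelial cells.

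Of the solute carriers 7 of 14 tested were higher and 1 lower (5 and 1 with the suspension as a block, 2 to 7 and 1 with a suspension left out). Of all genes tested 4.92% were higher and 22.5% lower, so the lower share of this list was below the background. Slc19a1, the reduced folate carrier, was at 2953, 2751, 2497 and 2501 CPM against 58.5 to 65.2 CPM (log2 difference 5.51 ± 0.13, adjusted p = 1.99e-05). Slc6a20a, a proline and imino acid transporter that is also on the pericyte list, was at 1902, 2327, 2158 and 2572 CPM. Slc16a12, a carrier of creatine, was at 350.6, 823, 432 and 600 CPM against at most 0.00381 CPM (adjusted p = 0.000313). Slc22a8, the organic anion transporter 3, reached 1287 to 2030 CPM in mural cells but was not called (adjusted p = 0.0512), the highest astrocyte sum being at 9.12 CPM. The glucose transporter Slc2a1 fell below the astrocytes, at 127.2 ± 32 CPM against 634 to 891 CPM (adjusted p = 0.00177), and below endothelial cells, at 1875 to 3054 CPM (adjusted p = 0.000739).

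Receptors for vasoactive signals gave 7 higher and 5 lower of 17 tested, 41.2% and 29.4%, against 4.92% and 22.5% of all genes tested. With the suspension as a block the counts were 5 and 2, and with a suspension left out 6 to 7 and 1 to 5. In every mural sum 8 of the 25 genes listed had 0 counts, among them the angiotensin receptor Agtr1a and the serotonin receptors Htr1b and Htr1f. P2ry14, the receptor for UDP-glucose, was at 2539, 1770, 1508 and 1568 CPM against 5.69 to 20.6 CPM (log2 difference 7.43 ± 0.50, adjusted p = 0.000333). S1pr3, a sphingosine 1-phosphate receptor, was at 2071, 2574, 2111 and 3296 CPM against 0.152 to 25.0 CPM (adjusted p = 0.00925, and 0.0665 with the block). Ednra, the endothelin A receptor, was at 695, 391, 514 and 639 CPM against 50.9 to 65.1 CPM (log2 difference 3.31 ± 0.24, adjusted p = 0.000389), whereas the endothelin B receptor Ednrb was at 29.2, 0.11, 0.373 and 57.4 CPM against 1467 to 2068 CPM and was not called (adjusted p = 0.056). The thromboxane receptor Tbxa2r was at 492, 562, 701 and 763 CPM against at most 0.00381 CPM (adjusted p = 0.000154). The adenosine receptor Adora2a stood at 295.9 ± 74.2 CPM against 3.08 to 18.0 CPM (adjusted p = 0.0029), and the thrombin receptor F2r at 331.5 ± 64.2 CPM against 3.74 to 30.005 CPM (adjusted p = 0.00531). P2rx1, an ATP-gated channel, was at 92.6, 89.5, 203.1 and 209.1 CPM with 0 counts in astrocytes (adjusted p = 0.00115, and 0.0759 with the block). Ramp1, a coreceptor for calcitonin gene-related peptide, went the other way, at most 0.0298 CPM against 577 to 746 CPM (adjusted p = 9.67e-05).

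Behind the receptors, 8 of 18 genes of cyclic nucleotide and G protein signalling were higher and 0 lower (5 with the suspension as a block, 5 to 8 with a suspension left out). The shares over all genes tested were 4.92% and 22.5%. Gucy1a1 and Gucy1b1 encode the paired subunits of soluble guanylyl cyclase, the receptor for nitric oxide. Gucy1a1 was at 924, 844, 957 and 948 CPM against 29.4 to 56.3 CPM (log2 difference 4.54 ± 0.25, adjusted p = 0.000212), and Gucy1b1 at 843, 808, 1090 and 1025 CPM against 17.2 to 35.7 CPM (5.06 ± 0.31, adjusted p = 0.000253). Pde5a, which breaks down cyclic GMP, was uneven, at 33.99, 1.98, 88.1 and 161.6 CPM (adjusted p = 0.00272). Rgs4 was at 5307, 4331, 4580 and 7152 CPM against at most 1.16 CPM (adjusted p = 0.00446). The kinases Rock1 and Rock2, which act on the myosin phosphatase, were not called, at 61.8 ± 22.7 and 30.4 ± 21.8 CPM against 49.03 to 55.9 and 10.5 to 29.5 CPM.

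In the PDGF, sphingosine 1-phosphate and angiopoietin list 2 of 9 tested were higher and 4 lower (1 and 0 with the suspension as a block, 1 to 2 and 0 to 4 with a suspension left out). Pdgfrb, given above, and Tek, an endothelial receptor at 45.6 ± 16.8 CPM with a count in 6.72% of mural cells (adjusted p = 0.00925, and 0.0655 with the block), were the higher ones. The ligand Pdgfb was at 28.7 CPM in cortex 1 and at 0 in the other mural sums, and at 51.4 to 405 CPM in endothelial cells. S1pr1 was at 0.129 to 21.7 CPM in mural cells against 4046 to 6043 CPM in astrocytes (adjusted p = 0.0122, and 0.0538 with the block), the reverse order to that of S1pr3. Vegfa and Pdgfc were at most 0.0552 CPM and at 0 in mural cells. Of all genes tested 4.92% were higher and 22.5% lower. Among genes found in more than 25% of cells 1 of 3 of this list was higher and 2 lower, against 25.2% and 23.1% of all such genes.

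Notch genes gave 5 higher and 2 lower of 14 tested (3 and 2 with the suspension as a block, 3 to 5 and 2 with a suspension left out). The shares were 35.7% and 14.3%, against 4.92% and 22.5% of all genes tested. Among genes found in more than 25% of cells 4 of 8 of the list were higher and 2 lower, against 25.2% and 23.1% of all such genes. Notch3 was at 400, 280, 348.99 and 307.4 CPM against 5.03 to 9.79 CPM (adjusted p = 0.000178), while Notch2 was at 52.6 ± 12.9 CPM against 260 to 547 CPM (log2 difference −2.77 ± 0.23, adjusted p = 0.000564). Of the transcription factors that Notch induces, Heyl was at 1192, 819, 1093 and 1780 CPM against 22.9 to 54.5 CPM (5.04 ± 0.40, adjusted p = 0.000588) and Hey2 at 87.4, 192, 93.1 and 156.2 CPM against 9.09 to 24.4 CPM (3.18 ± 0.51, adjusted p = 0.00901). Hes5 ran the other way, with at most 0.0298 CPM in mural cells and 279.2 to 599 CPM in astrocytes (adjusted p = 0.000476). The letters GTGGGAA, bound by the Notch partner RBPJ, were found on either strand in 1779 of 32851 promoters of 250 bases (5.42%). Of this list 14 promoters of 12 of its 16 genes were searched, and 2 held the letters, those of Hey2 and Hes5. The promoter of Hes5 also holds letters that match the CArG pattern, which are not capitalized below and describe letters only. Both promoters are printed because they hold GTGGGAA and the genes differ in opposite directions. They lie at chr10:30842784-30843033 (minus strand) and chr4:154960673-154960922 (plus strand) of GRCm38.p6, shown 5′ to 3′ on the gene's strand with GTGGGAA or its reverse complement in capitals, found once in Hey2 and at 2 places in Hes5.
Hey2: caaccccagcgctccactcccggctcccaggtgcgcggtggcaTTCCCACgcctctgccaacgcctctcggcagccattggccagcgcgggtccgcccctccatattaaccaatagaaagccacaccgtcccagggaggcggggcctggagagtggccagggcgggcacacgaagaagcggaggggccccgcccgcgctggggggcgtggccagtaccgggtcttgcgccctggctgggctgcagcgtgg
Hes5: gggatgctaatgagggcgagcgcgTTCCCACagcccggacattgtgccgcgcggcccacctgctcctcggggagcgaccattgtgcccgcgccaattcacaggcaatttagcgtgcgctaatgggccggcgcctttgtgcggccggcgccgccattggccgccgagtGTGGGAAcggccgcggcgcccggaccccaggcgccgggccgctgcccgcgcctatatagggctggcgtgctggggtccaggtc

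TGF-beta and BMP genes gave 5 higher and 5 lower of 22 (3 and 0 with the suspension as a block, 3 to 5 and 1 to 4 with a suspension left out). Each count was 22.7% of the list, against 4.92% higher and 22.5% lower of all genes tested, so the lower share was at the background. Among genes found in more than 25% of cells 2 of 8 of the list were higher and 3 lower. The background there was 25.2% higher and 23.1% lower, so the higher share was at the background too. Eng, the coreceptor endoglin, was at 810, 572, 869 and 1273 CPM against at most 2.52 CPM in astrocytes (adjusted p = 0.0307, and 0.0616 with the block) and was below endothelial cells, at 1968 to 2493 CPM (adjusted p = 0.0197, and 0.0635 with the block). The ligands Bmp4 and Bmp5 were at 131.2 ± 65.1 and 81.7 ± 33.8 CPM against at most 0.00241 CPM each (adjusted p = 0.000482 and 0.00113). The receptor Bmpr1b had 0 counts in mural cells and 229.2 to 298.2 CPM in astrocytes (adjusted p = 0.000707, and 0.0536 with the block).

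Of the transcription factors, most of them known from mural cells, 12 of 23 tested were higher and 3 lower (7 and 1 with the suspension as a block, 6 to 12 and 1 to 4 with a suspension left out). Of all genes tested 4.92% were higher and 22.5% lower, so the lower share of this list was below the background. Tbx3 was at 194.8, 235.5, 206.6 and 342.2 CPM against at most 0.00241 CPM (adjusted p = 0.000178), and Ebf1 at 458, 499, 524 and 778 CPM against at most 0.335 CPM (adjusted p = 0.0106). Foxf2, needed for pericytes of the brain, was at 64.7, 55.3, 175.9 and 60.1 CPM (adjusted p = 0.00296), highest in hippocampus 1, and Foxs1 at 485 ± 170 CPM (adjusted p = 0.017, and 0.052 with the block). Nr2f2, a factor of veins, was at 382 ± 43.5 CPM against 13.3 to 36.7 CPM (log2 difference 4.10 ± 0.33, adjusted p = 0.000588), and Mef2c at 354.2 ± 106.1 CPM against 9.57 to 21.1 CPM (4.61 ± 0.39, adjusted p = 0.000714). Myocd, the coactivator of the smooth muscle programme, had counts in 1.49% of mural cells. Sox2 and Lhx2 were at 0 in all mural sums, and Dbx2 at most at 0.052 CPM against 616 to 728 CPM in astrocytes.

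Of the 18 basement membrane genes tested 11 were higher in mural cells, 0 were lower and 7 were not called (6 higher with the suspension as a block, 4 to 10 with a suspension left out). Of all genes tested 4.92% were higher and 22.5% lower. The median log2 difference over the list was 4.76. The summed level of the list was 28505, 31245, 33131 and 32326 CPM against 539 to 1489 CPM in astrocytes, and Vtn made up most of the mural sum. The collagen IV chains Col4a1 and Col4a2 were at 511 ± 142.7 and 263.4 ± 32.5 CPM against 6.77 to 26.5 and 5.82 to 21.3 CPM (adjusted p = 0.00235 and 0.00112). Among laminin chains, Lamc1 was at 532, 738, 686 and 818 CPM against 17.6 ± 9.40 CPM (log2 difference 5.38 ± 0.45, adjusted p = 0.000688), Lamb1 at 291.1 ± 68.2 CPM against at most 0.722 CPM (adjusted p = 0.00446) and Lamb2 at 584 ± 73.8 CPM against 90.98 to 125 CPM (2.54 ± 0.20, adjusted p = 0.000482). Lama2 did not pass, at 373.4, 150, 292.97 and 397 CPM against 137.1 to 207.4 CPM (adjusted p = 0.059). Nid1, the linker nidogen, was at 815 ± 194.6 CPM against at most 6.08 CPM (adjusted p = 0.0196, and 0.136 with the block).

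Fibrillar and other matrix genes gave 3 higher and 2 lower of 13 (1 and 0 with the suspension as a block, 1 to 2 and 0 to 2 with a suspension left out, and 3 and 5 without the 6 cells that stood apart). With all cells the shares were 23.1% and 15.4%, against 4.92% and 22.5% of all genes tested. Among genes found in more than 25% of cells 3 of 5 of the list were higher and 1 lower, against 25.2% and 23.1% of all such genes. Mgp is given above. Bgn, the proteoglycan biglycan, was at 1071, 923, 1517 and 1786 CPM against 0.00571 to 62.97 CPM (adjusted p = 0.0498, and 0.157 with the block), and Lgals1 at 91.3 ± 14.8 CPM against 31.7 to 48.0 CPM (adjusted p = 0.038, and 0.164 with the block). Timp3 was at 136.7 ± 83.9 CPM against 876 to 929 CPM (adjusted p = 0.0141, and 0.0659 with the block). Integrins and adhesion genes gave 6 higher and 4 lower of 22 (3 and 3 with the block, 2 to 7 and 3 to 5 with a suspension left out). The shares were 27.3% and 18.2%, against 4.92% and 22.5% of all genes. Among genes found in more than 25% of cells 7 of 16 were higher and 4 lower, against 25.2% and 23.1%. Itgb1, the common beta subunit, was at 1226, 1512, 1193 and 1108 CPM against 131.96 to 155.9 CPM (3.21 ± 0.17, adjusted p = 0.000202), and its collagen-binding partner Itga1 at 1297, 595, 753 and 895 CPM against 11.4 ± 7.31 CPM (6.56 ± 0.60, adjusted p = 0.00101). Itga6 was at most 0.026 CPM in mural cells and at 168.8 to 199.3 CPM in astrocytes (adjusted p = 0.000482).

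Of the 20 glycolytic genes tested 13 were lower in mural cells and 1 was higher. These were 65.0% and 5.0% of the list, against 22.5% lower and 4.92% higher of all genes tested. The counts were 9 and 0 with the suspension as a block, and 8 to 12 and 0 with a suspension left out. Lower calls numbered 11 with library size alone or with RLE size factors. With as many astrocytes as mural cells 7 of 18 were lower. The median log2 difference was −1.82, against −1.28 over all genes tested, a median that was −0.24 among genes found in more than 25% of cells and −0.05 with equal cells. Their summed level was 5184, 5365, 5274 and 5933 CPM against 34721 to 37741 CPM in astrocytes, and 4857 to 7781 CPM in endothelial cells. Aldoc, the brain isoform of aldolase and an astrocyte marker, made up most of the astrocyte sum: 10.8 ± 7.61 CPM against 19599 to 21639 CPM (adjusted p = 0.00134). Eno1 was at 140, 119.2, 241.2 and 203.1 CPM against 1821 to 2333 CPM (log2 difference −3.56 ± 0.26, adjusted p = 0.000408), Gapdh at 551, 363.2, 615 and 592 CPM against 1927 to 2168 CPM (−1.92 ± 0.18, adjusted p = 0.000928) and Ldhb at 297.7, 141.1, 132.2 and 110 CPM against 2542 to 2611 CPM (−3.93 ± 0.32, adjusted p = 0.000648). Pkm was not called, at 952 ± 170.7 CPM against 934 to 1022 CPM, nor was Ldha, at 249.5, 410, 665 and 822 CPM against 669 to 784 CPM (adjusted p = 0.319). Aldoa was called lower (adjusted p = 0.0281, and 0.157 with the block), but its log2 difference of −0.47 turned to 0.128 under another scaling. The 1 gene called higher was Slc2a3 (adjusted p = 0.0499, and 0.153 with the block).

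The oxygen list held 4 higher and 3 lower of 12 (2 and 1 with the suspension as a block, 2 to 4 and 1 to 4 with a suspension left out). These were 33.3% and 25.0% of the list, against 4.92% and 22.5% of all genes tested, so the lower share was near the background. Among genes found in more than 25% of cells 4 of 9 of the list were higher and 2 lower, against 25.2% and 23.1% of all such genes. Paired subunits of respiration were called in opposite directions, with Cox4i1 close to the median log2 difference of −1.28 over all genes tested. Cox4i2, the isoform of cytochrome c oxidase subunit 4 linked to low oxygen, was at 424, 560, 511 and 405 CPM against 5.49 to 14.2 CPM (5.64 ± 0.33, adjusted p = 0.000229), while the common isoform Cox4i1 was at 343.6, 197.6, 306.6 and 304.2 CPM against 683 to 780 CPM (−1.29 ± 0.19, adjusted p = 0.00645). Ndufa4l2 was at 519, 449, 435 and 376.4 CPM against at most 0.253 CPM, and its paralog Ndufa4 at most 3.94 CPM against 220.8 to 268.2 CPM (adjusted p = 0.0139, and 0.102 with the block). Epas1, the hypoxia-inducible factor 2-alpha, was at 1070, 1652, 1365 and 1583 CPM against 192.7 to 252.3 CPM (2.69 ± 0.20, adjusted p = 0.000416), and Hif1a was not called, at 150 ± 57.5 CPM against 125.8 to 172.3 CPM.

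**Figure D4:**
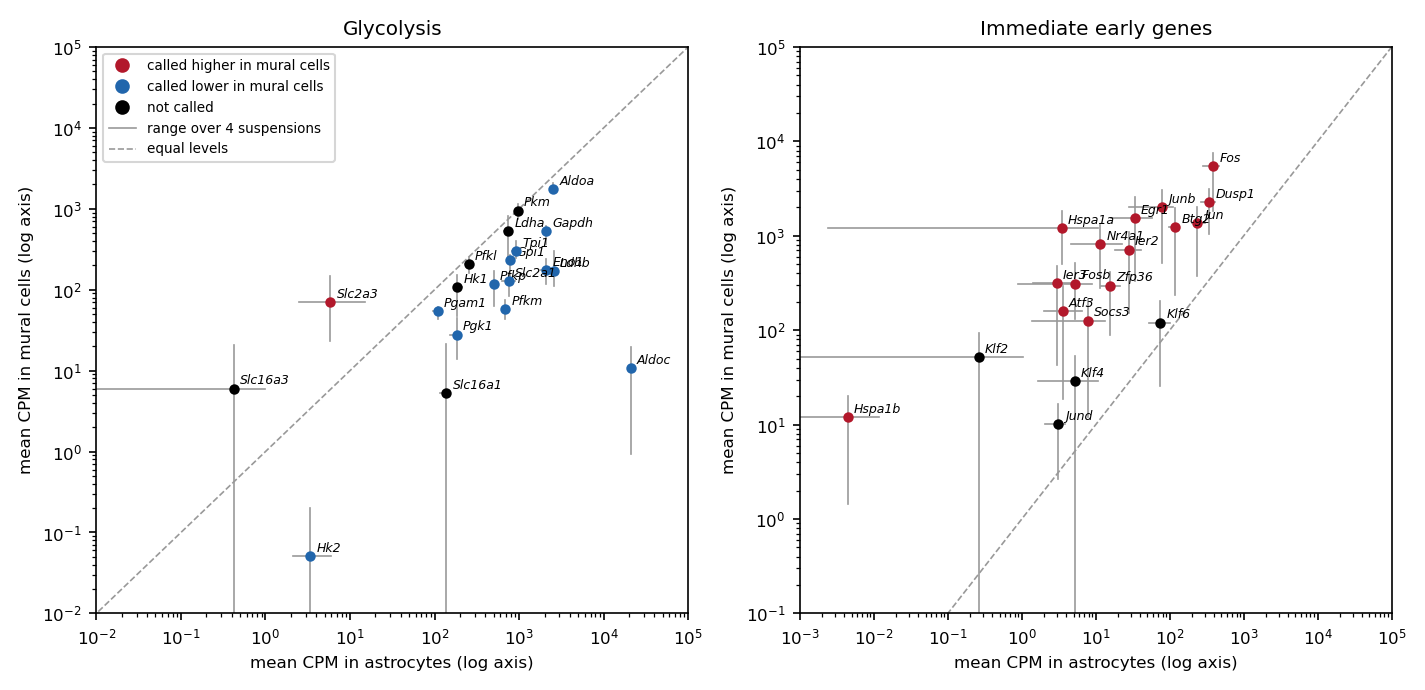
Mean CPM of each gene in astrocytes (x) and mural cells (y), both log axes, for glycolysis (left) and immediate early genes (right); lines span the lowest to the highest of 4 suspensions, the dashed line marks equal levels, and color gives the call. Most glycolytic genes lie under the line, and Fos, Junb and Egr1 lie above it.

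Immediate early genes are induced within minutes of a stimulus and also by tissue dissociation. Of the 19 tested 15 were higher in mural cells and 0 lower (8 higher with the suspension as a block, 5 to 14 with a suspension left out). The shares over all genes tested were 4.92% and 22.5%. Among genes found in more than 25% of cells 14 of 14 of the list were higher, against 25.2% of all such genes. The median log2 difference of the 19 genes was 4.59. Their summed level was 16973, 5622, 25603 and 24086 CPM in mural cells, 1006 to 1666 CPM in astrocytes and 8721 to 16530 CPM in endothelial cells. Cortex 2 had the lowest mural value of all 19 genes. Fos was at 5510, 1848, 7565 and 6988 CPM against 286 to 461 CPM (log2 difference 3.80 ± 0.45, adjusted p = 0.00324), and Junb at 2077, 518, 3060 and 2484 CPM against 28.0 to 110 CPM (4.66 ± 0.73, adjusted p = 0.00898). Nr4a1 was at 809, 277.7, 1297 and 900 CPM against 4.65 to 22.9 CPM (6.19 ± 0.81, adjusted p = 0.00475), and Zfp36, whose promoter is shown above, at 312.4, 88.3, 377.4 and 412 CPM against 11.7 to 20.95 CPM (4.22 ± 0.54, adjusted p = 0.00427). The median mural cell had counts of 10, 4, 10.5 and 11 of these genes in the 4 suspensions, the median astrocyte 1 in each, and the median endothelial cell 11, 16, 14.5 and 13. By edgeR 0 of the 19 genes were called between mural and endothelial sums (3 at an unadjusted p under 0.05). Over all genes of that comparison 0.366% were called higher and 0.377% lower, so 0 of 19 is no sign of equal levels. The part that dissociation has in these levels was not tested.

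Of the immune signals 7 of 16 tested were higher and 2 lower (4 and 0 with the suspension as a block, 5 to 7 and 0 to 2 with a suspension left out). The shares were 43.8% and 12.5%, against 4.92% and 22.5% of all genes tested. Il34, a ligand of the microglial receptor Csf1r, was at 1046, 702, 407 and 594 CPM against at most 6.93 CPM (adjusted p = 0.0181), while Csf1, the other ligand, had 0 counts in mural cells and 39.3 to 54.3 CPM in astrocytes (adjusted p = 0.00925, and 0.157 with the block). Ifitm3 was at 364.3 ± 105 CPM against 7.87 to 38.0 CPM (4.55 ± 0.42, adjusted p = 0.00101) and H2-D1, a class I antigen-presenting molecule, at 752, 313.5, 761 and 596 CPM against 36.04 to 118.8 CPM (3.12 ± 0.39, adjusted p = 0.00401). Cxcl12 was at 657 ± 200.6 CPM against at most 18.4 CPM (adjusted p = 0.0386, and 0.145 with the block), and was below endothelial cells, at 1499 to 2452 CPM.

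Markers of other cell types were summed in the same way. The 10 astrocyte markers summed to 1.98 to 460 CPM against 59452 to 66669 CPM in astrocytes, with 9 called lower (6 with the suspension as a block), and the lowest sum was that of cortex 2. Slc1a3 was at 244.1, 0.606, 222.4 and 201.1 CPM in mural cells, with a count in 35.8% of them. The 10 endothelial markers summed to 301.3 to 611 CPM in mural cells, 1.83 to 3.52 CPM in astrocytes and 14525 to 19852 CPM in endothelial cells, and 3 of 6 tested were called higher than in astrocytes (Cldn5, Flt1 and Tek, 0 with the block). Cldn5, claudin 5 of the endothelial barrier, was at 16.6, 92.1, 121.98 and 73.5 CPM and had a count in 13 mural cells. Its part in the other vessel genes was not tested. Fibroblast markers summed to 500 to 927 CPM in mural cells, 207.98 to 365.9 CPM in astrocytes and 1.72 to 160.7 CPM in endothelial cells. Of the 5 tested 0 were called by edgeR, with 0 at an unadjusted p under 0.05 (3 higher and 1 lower by DESeq2, 2 higher of 4 with as many astrocytes as mural cells, 0 to 2 higher with a suspension left out, and 1 lower without the 6 cells that stood apart), with a median log2 difference of 8.75, or 3.29 with genes at 0 counts set to their bound. Their part in the matrix genes was not tested. Calls were 0 of 5 for oligodendrocyte markers, 1 lower of 5 for microglial markers, 2 lower of 2 for oligodendrocyte precursor markers and 2 lower of 4 for neuronal markers. Over all genes tested 4.92% were higher and 22.5% lower.

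Against endothelial cells, the other vessel cells of the sort, 31 of 8478 genes were called higher in mural cells (0.366%) and 32 lower (0.377%), from sums of as few as 3 endothelial cells. With the suspension as a block these were 12 and 16, and with a suspension left out 0 to 11 and 1 to 13. Pericyte genes gave 5 higher of 14: Kcnj8 (log2 difference 2.51 ± 0.28, adjusted p = 0.00892), Art3 (2.57 ± 0.25, 0.00604), Rgs5 (1.24 ± 0.16, 0.0179), Vtn (2.22 ± 0.34, 0.0365, and 0.0771 with the suspension as a block) and Atp13a5 (2.38 ± 0.39, 0.0446, and 0.113 with the block). Endothelial cells had 4538 to 7604 CPM of Rgs5 and a median of 7.5 of the 14 pericyte genes per cell, against 12 in mural cells and 0 in astrocytes. Whether pericyte RNA came along with these endothelial cells was not tested.

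Between brain areas, 0 of 10614 genes were called in hippocampal against cortical mural cells (0% by edgeR; 961 at an unadjusted p under 0.05, and 1373 by DESeq2), from 2 suspensions each. The mural minus astrocyte difference itself differed between areas for 8 of 15887 genes (0.0504%), for 0 with the suspension as a block and for 1238 without cortex 1. Among list genes, Fosb, an immediate early gene, was at 482 CPM in hippocampal and 141.3 CPM in cortical mural cells and was not called (log2 difference 1.72 ± 0.30, adjusted p = 0.535 by edgeR). Cortex 2, with 12 mural cells, had the lowest mural value of all 19 immediate early genes, and it enters the cortical mean. Their summed level was 5622 CPM there and 16973 CPM in cortex 1. Mural cells made up 5.38% (95% Wilson interval 3.72 to 7.71), 2.32% (1.33 to 4.01), 10.4% (7.94 to 13.5) and 9.36% (7.11 to 12.2) of the typed cells of cortex 1, cortex 2, hippocampus 1 and hippocampus 2, intervals that cover counting error only. The mean was 3.85% ± 2.16 in cortex and 9.89% ± 0.742 in hippocampus (n = 2 each), and the difference of 6.04 percentage points had an exact permutation p of 0.333, two-sided, the smallest that 2 against 2 suspensions allow. The cells were sorted on Atp1b2, and the part of the sort in these shares was not tested. Mural cells were found on 30 of 32 plates and on all 11 dates of reverse transcription.

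Wells with a mural cell gave fewer genes, and fewer gene counts per spike-in, than wells with an astrocyte. The median number of genes with a count was 1687, 1618, 1624 and 1621 in mural cells and 2283, 2156, 2031 and 2084.5 in astrocytes, a difference of −501 ± 82.9 genes (SD, n = 4, lower in 4 of 4, exact sign-flip test, two-sided, at the smallest p that 4 pairs allow, which is above 0.05). With each cell thinned to 500000 gene counts the difference was −438 ± 58.4. Per spike-in, the log2 ratio of gene counts to ERCC counts differed by −0.702 ± 0.0318 between the medians (SD, n = 4, lower in 4 of 4 suspensions, the same test and p). The mitochondrial share of counts was 1.98%, 1.80%, 2.01% and 2.03% in mural cells and 3.66% to 3.94% in astrocytes. CPM values do not include this difference in total counts per spike-in.

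**Figure D5:**
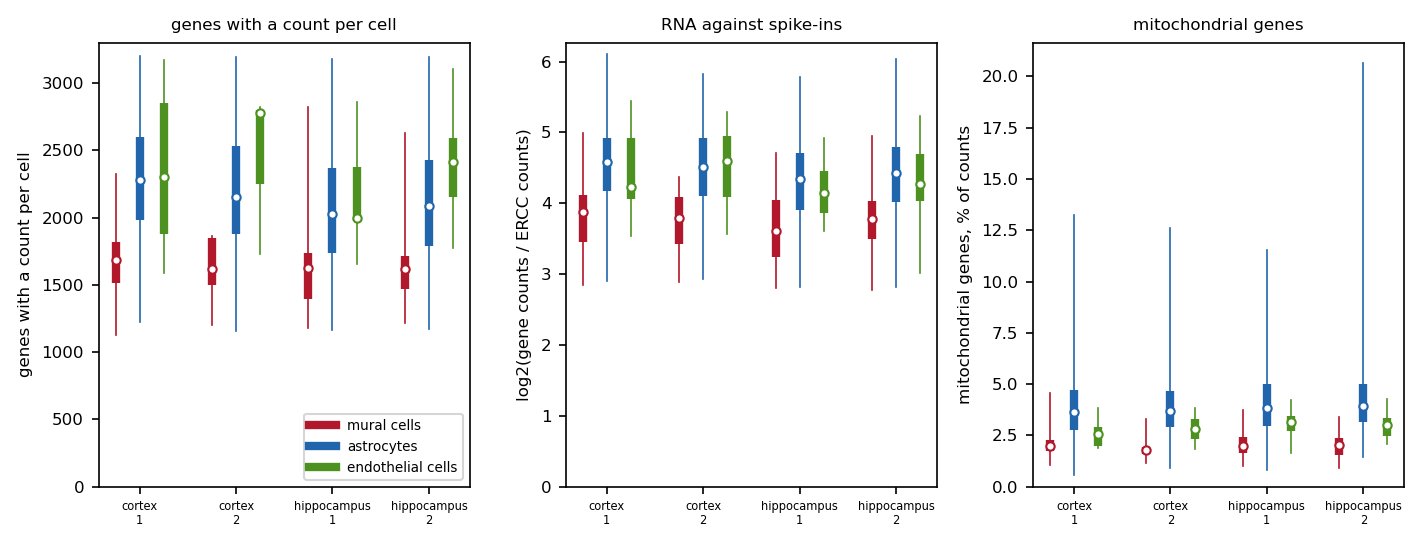
Genes with a count per cell, log2 ratio of gene counts to ERCC spike-in counts, and percent of counts on mitochondrial genes, by suspension, for mural cells, astrocytes and endothelial cells; circles are medians, thick bars the interquartile range and thin lines the full range. In each suspension the mural medians lie under the astrocyte medians in all 3 measures.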

How the data were processed

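Single cells of 4 suspensions were sorted into wells of 32 plates and sequenced by the authors with Smart-seq2 and 92 ERCC spike-ins. Reads were checked with FastQC 0.11.4, aligned to GRCm38.p5 with STAR 2.5.2b and counted per gene with HTSeq against Gencode M12; the deposited values are raw counts of reads for 49671 genes in 1 file per cell, and rows that name no gene were left out. In the joint count file 2030 columns were not used; the column of the 135th mural cell served as an alternative. Cell types were taken from a copy of the study's list that lacked some of its cells. The 48 cells without a type in that copy were left out, and no doublet caller was run.

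Counts were summed per type and suspension and tested with edgeR 4.0.16 (R 4.3.3; TMM, its filter on low counts, robust quasi-likelihood fit, brain area as a term, Benjamini-Hochberg adjustment). DESeq2 1.42.0 was an alternative. Sums of different types from the same suspension came from the same animals, so the suspension pairs them; cortical and hippocampal suspensions of the same number came from different litters and were not paired. The members, the 26 gene lists and the tests were chosen with earlier results of these data known. Genes named are the 4 markers, list members, and the 10 called genes with the largest difference in each direction that had a count in a majority of cells of the higher type in every suspension and a mean of at least 100 CPM there; Casq2 and the interaction genes on no list were named after their values were seen. Cells were thinned to 500000 counts where stated. Reads carry no molecular tags, so intervals and floors cover counting error only. Promoters come from RefSeq (GRCm38.p6); gene positions are those of GRCm38. Statistics were tested on simulated data. A few genes that meet the rule are not reported here.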

Additional observations from a re-analysis of the deposited data

Results flagged for a closer look

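In 8 quantities (4.91% of those tested) over the 4 mural sums or medians, 1 suspension stood farther from the rest than Dixon's 95% limit for its gap divided by the range; chance alone gives about 1 in 20. Pdgfrb (2705 CPM) was low in cortex 2, while Ltbp3 (306.9 CPM), Itgb5 (443 CPM) and Aldoa (2075 CPM) were high there, the suspension with 12 mural cells. In cortex 1, Acta2 (1944 CPM), Ldhb (297.7 CPM) and the median number of genes per mural cell (1687) were high and Nr2f2 (317.6 CPM) was low.

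The mural minus astrocyte difference differed between hippocampus and cortex, by the interaction test of edgeR, for Ndufa4l2, Rorb and Fndc4 (adjusted p = 0.0255 each), Tmem176b, Rnf215, Pdpn and Eogt (0.0432 each) and Tom1l1 (0.045). With the suspension as a block 0 genes were called, and 535 had an unadjusted p under 0.05 in edgeR. Rorb, Fndc4, Rnf215, Pdpn, Eogt and Tom1l1 had 0 counts in both cortical mural sums. Rorb was at 77.1 and 112.4 CPM in the hippocampal ones, with a count in 7.46% of mural cells. Ndufa4l2 was at 519, 449, 435 and 376.4 CPM in mural cells and at 0.0019 to 0.253 CPM in astrocytes, and Tmem176b at 21.02, 38.4, 0.0149 and 0.0368 CPM in mural cells and at 536 to 617 CPM in astrocytes.

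Of the 48 cells without a type in the copy of the study's list used here, 1 (2.08%) carried 3 of the 4 mural markers. That copy lacked some of the study's cells, so whether the study itself typed this cell is not known here. Of 1781 astrocytes 0 carried 3 markers, while 3 of 30 endothelial cells carried 3 and 1 carried all 4. The mural cell used only as an alternative, from hippocampus 2, held 37728 CPM of Vtn and 19208 CPM of Rgs5.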

How the results depend on the processing

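Of the alternative values, 72 stayed within the limits set for their result, 37 moved and 0 reversed. A number of called genes was taken to have moved where it changed by over 1.5 times, and it is given as a percent of the genes tested. Most of the values are such numbers, which have no sign and so could not reverse. Genes higher than in astrocytes (4.92%, 781 genes) became 10.7% (1699) with DESeq2, 1.83% (290) with the suspension as a replicate block, 7.91% (1256) with library size alone and 4.00% (439) with as many astrocytes as mural cells, and ranged from 1.73% (without cortex 1) to 4.77% with a suspension left out (2.93% without hippocampus 1 and 3.00% without hippocampus 2). Genes lower (22.5%, 3579 genes) became 36.8% (5840) with DESeq2, 2.37% with the block, 20.1% (3187) with library size alone and 5.46% (599) with equal cells, were 23.1% (729, with 25.2% or 793 higher) among the 3150 genes found in more than 25% of cells and 9.25% (2473, with 2.40% or 641 higher) of the 26727 genes without the low-count filter, and were 2.63% (427, without cortex 1) to 19% with a suspension left out. The higher share of calls was 17.9%, and 43.5% with the block, 28.3% with library size alone, 52.1% in the 25% filter, 42.3% with equal cells and 39.7% without cortex 1. The median log2 difference over all genes was −1.28, −1.12 with RLE size factors, −0.69 with library size alone, −0.74 with no brain area term, −2.07 with the block, −0.24 in the 25% filter, −0.05 with equal cells and −1.43 to −0.91 with a suspension left out, so the background of the lists moves with the setting. Against endothelial cells, 0.366% higher (31 genes) and 0.377% lower (32 genes) became 9.15% and 4.46% with DESeq2, 0.375% and 0.369% (64 and 63 genes) without the low-count filter and 0.142% and 0.189% with the block; 0.554% were higher with no brain area term, and a suspension left out gave 0 (without cortex 1, with 611 genes at an unadjusted p under 0.05 in edgeR) to 0.129% higher and 0.0124% (without hippocampus 2) to 0.152% lower. The 8 interaction calls became 18.4% of genes with DESeq2, 0.0112% without the filter, 0 with the block (535 genes at an unadjusted p under 0.05 in edgeR) and 0.227% without the 6 mural cells that had Acta2 or lacked Rgs5; with a suspension left out they were 7.62% without cortex 1 and 0 without each of the others, where 1796 to 2342 genes had an unadjusted p under 0.05. Hippocampal against cortical mural cells gave calls in 12.9% of genes (1373) with DESeq2 in place of 0 in edgeR, where 961 genes had an unadjusted p under 0.05. For another measure, the log2 share of gene counts in gene plus ERCC counts, the mural minus astrocyte difference was −0.0387. Gene counts far exceed ERCC counts, so this share lies near its upper limit. Its differences are small by construction and are not on the scale of the ratio to ERCC counts. The cause of these changes was not tested. Library size alone, the 25% filter, the equal number of astrocytes and the removal of the 6 cells were chosen after seeing the data. The endothelial sums and the cortex 2 sum of mural cells hold the fewest counts.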
